A study of Mus musculus with 9 samples.

Results

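The 10 genes described here encode the muscle acetylcholine receptor and the agrin and MuSK pathway that clusters it, and they were taken by name: the receptor subunits Chrna1, Chrnb1, Chrnd, Chrng and Chrne, the signalling genes Agrn, Lrp4, Musk and Dok7, and the scaffold gene Rapsn. They are 10 of the 52780 genes in the deposited count table, and all 10 were among the 19545 genes with enough counts to be tested. mRNA was sequenced from C2C12 cells, a mouse myoblast line that exits the cell cycle and fuses into multinucleated myotubes when serum is reduced, at day 4 of differentiation. The study asked how each splice isoform of the histone variant macroH2A1 contributes to this process, and there were 3 samples each of control cells, of cells given siRNA against macroH2A1.1 (si mH2A1.1) and of cells given siRNA against macroH2A1.2 (si mH2A1.2), both at 10 nM and delivered repeatedly from before the medium change onwards. The control samples are labelled wild type, and the labels do not say whether they received a control siRNA. All 9 samples came from this single immortal line cultured without nerve. The study describes the 3 replicates as independent biological ones, and the labels number them.

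The muscle acetylcholine receptor is a pentameric ion channel that opens when the motor neuron releases acetylcholine. It holds alpha, beta and delta subunits together with a gamma subunit in embryonic and denervated muscle or an epsilon subunit in adult innervated muscle. The alpha (Chrna1), beta (Chrnb1), delta (Chrnd) and gamma (Chrng) genes are switched on by myogenic E-box-binding factors when myoblasts differentiate, whereas the epsilon gene (Chrne) is activated mainly in the nuclei beneath the nerve ending. Clustering of the receptor is driven by agrin (Agrn), which binds the coreceptor LRP4 (Lrp4) and thereby activates the receptor tyrosine kinase MuSK (Musk). The adaptor Dok-7 (Dok7) activates MuSK from the cytoplasmic side, and rapsyn (Rapsn) anchors the receptors beneath the membrane.

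Upstream sequences of 4 members are shown because the receptor genes differ in the E-boxes (CANNTG) and N-boxes (CCGGAA, the element bound by ETS-family GABP in synaptic genes) that lie before their start sites. They are the 250 bases before the RefSeq start on GRCm38.p6, 5′ to 3′ on the strand of the gene, with every match to either motif in capitals. The Chrng window is chr1:87205561-87205810 on the plus strand, and it lies within the longer GENCODE gene model of Chrng. The other windows are chr2:73580339-73580588 on the minus strand for Chrna1, chr11:70619195-70619444 on the minus strand for Chrne, and chr5:35056516-35056765 on the plus strand for Dok7.
Chrna1: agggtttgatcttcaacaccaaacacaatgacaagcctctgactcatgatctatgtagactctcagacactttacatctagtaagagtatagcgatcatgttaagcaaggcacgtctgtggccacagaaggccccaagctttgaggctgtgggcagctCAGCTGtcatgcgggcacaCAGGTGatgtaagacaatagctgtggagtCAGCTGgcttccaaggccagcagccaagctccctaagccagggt
Chrng: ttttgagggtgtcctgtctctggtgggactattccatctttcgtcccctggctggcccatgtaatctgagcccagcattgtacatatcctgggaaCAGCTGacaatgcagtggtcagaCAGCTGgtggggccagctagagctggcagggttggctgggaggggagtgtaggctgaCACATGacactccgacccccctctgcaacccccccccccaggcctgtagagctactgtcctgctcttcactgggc
Chrne: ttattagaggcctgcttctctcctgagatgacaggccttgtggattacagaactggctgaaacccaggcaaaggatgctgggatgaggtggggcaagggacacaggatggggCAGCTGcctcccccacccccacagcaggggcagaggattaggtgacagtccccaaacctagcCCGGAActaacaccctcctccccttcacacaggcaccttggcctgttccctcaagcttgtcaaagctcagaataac
Dok7: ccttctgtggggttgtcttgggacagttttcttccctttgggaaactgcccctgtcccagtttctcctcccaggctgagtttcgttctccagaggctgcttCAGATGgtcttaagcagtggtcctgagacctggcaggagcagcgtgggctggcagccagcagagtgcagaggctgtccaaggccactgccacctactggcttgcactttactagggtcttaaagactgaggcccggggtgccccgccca

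Both strands were searched, and CAGCTG is counted as an E-box and also on its own. Chrna1 held CAGCTG at 92 to 87 and at 44 to 39 bases before the start, with a CAGGTG at 73 to 68 bases between them. Chrng also held 2 copies of CAGCTG, at 155 to 150 and at 132 to 127 bases, and a CACATG at 75 to 70 bases. Among 32851 RefSeq windows of the same length, 66.22% held any E-box, 13% held CAGCTG and 1.26% held it at least 2 times. Chrne held 1 CAGCTG, at 138 to 133 bases, and was the member with an N-box, at 76 to 71 bases, an element found in 12.03% of the windows. The first Dok7 window held 1 E-box, CAGATG at 149 to 144 bases. Windows were present for 7 members (9 windows), and Chrnd, Rapsn and Lrp4 had none. Of the windows not shown, that of the receptor gene Chrnb1 held 3 E-boxes and 0 copies of CAGCTG. Musk held 3 E-boxes with 1 CAGCTG, the Agrn windows 0 and 1 E-box, and the second Dok7 window 0. At least 2 E-boxes were found in 31.81% of the RefSeq windows. A match is a description of the letters in the window and does not show that a factor binds there.

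The members lie on 5 chromosomes of GRCm38. Chrnd (ENSMUSG00000026251, chr1:87190607-87200070) and Chrng (ENSMUSG00000026253, chr1:87204657-87212694) are neighbours on the plus strand with a gap of 4586 bp between them. Chrna1 (ENSMUSG00000027107, chr2:73563215-73580338, minus strand), Rapsn (ENSMUSG00000002104, chr2:91035620-91045729, plus strand) and Lrp4 (ENSMUSG00000027253, chr2:91457511-91513779, plus strand) are on chromosome 2. Chrnb1 (ENSMUSG00000041189, chr11:69784036-69795943) and Chrne (ENSMUSG00000014609, chr11:70614883-70619216) are on the minus strand of chromosome 11. Musk (ENSMUSG00000057280, chr4:58285960-58374303, plus strand) and Agrn (ENSMUSG00000041936, chr4:156165290-156197488, minus strand) are on chromosome 4, and Dok7 (ENSMUSG00000044716, chr5:35056766-35087839, plus strand) is on chromosome 5. The counts are totals over each gene, so the neural and muscle splice forms of agrin, which differ in their power to activate MuSK, were not separated.

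Libraries held 36924252 to 42223108 counts. H2afy, the gene that encodes both macroH2A1 isoforms, was measured as a whole and does not show which isoform was lost. Levels are in CPM, counts in every 1e6 counts of the library, with the library size scaled as described under the processing. That of H2afy was 56.3, 62.4 and 61.0 CPM in the control samples, 38.8, 30.0 and 30.9 CPM with si mH2A1.1, and 46.8, 47.2 and 43.2 CPM with si mH2A1.2. Each knockdown sample was below every control sample. H2afy fell by 0.85 ± 0.11 on the log2 scale (SE; adjusted p = 0.00331, edgeR's quasi-likelihood test with Benjamini-Hochberg adjustment over all tested genes) with si mH2A1.1, while for si mH2A1.2 the log2 fold change of -0.39 ± 0.11 did not pass the threshold of 0.05 (adjusted p = 0.108). All SEs and adjusted p-values below come from that test unless another tool is named, "called" means that the adjusted p did not exceed 0.05, and n = 3 samples in each group.

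Control myotubes contained abundant mRNA of the embryonic form of the receptor and almost none of the adult epsilon subunit. Per kilobase of annotated exon, Chrna1 was at 188 ± 38.0 CPM per kb (SD), Chrng at 127 ± 23.7 and Chrnd at 99.6 ± 20.3 CPM per kb. Chrnb1 followed at 53.4 ± 12.2 CPM per kb, close to Rapsn at 45.3 ± 10.4 CPM per kb. Lrp4 stood at 29.3 ± 4.97 CPM per kb, above Musk at 11.5 ± 3.08 and Agrn at 10.7 ± 0.858 CPM per kb. Dok7 reached 6.01 ± 1.82 CPM per kb, and Chrne was last at 0.145 ± 0.0918 CPM per kb. In this order the control ranges of Chrng and Chrnd overlapped, as did those of Chrnb1 and Rapsn and those of Musk and Agrn, whereas each of the other neighbours was separated from the next by its control samples. The place of Chrng depends on the length used, since its level was 190 ± 35.6 CPM per kb (SD) over its longest annotated transcript, beside 188 ± 38.0 CPM per kb for Chrna1. On that length the control ranges of Chrng and Chrnd were separate. Those of Agrn (10.7 to 12.5 CPM per kb) and Dok7 (7.57 to 12.5 CPM per kb) overlapped.

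**Figure D1:**
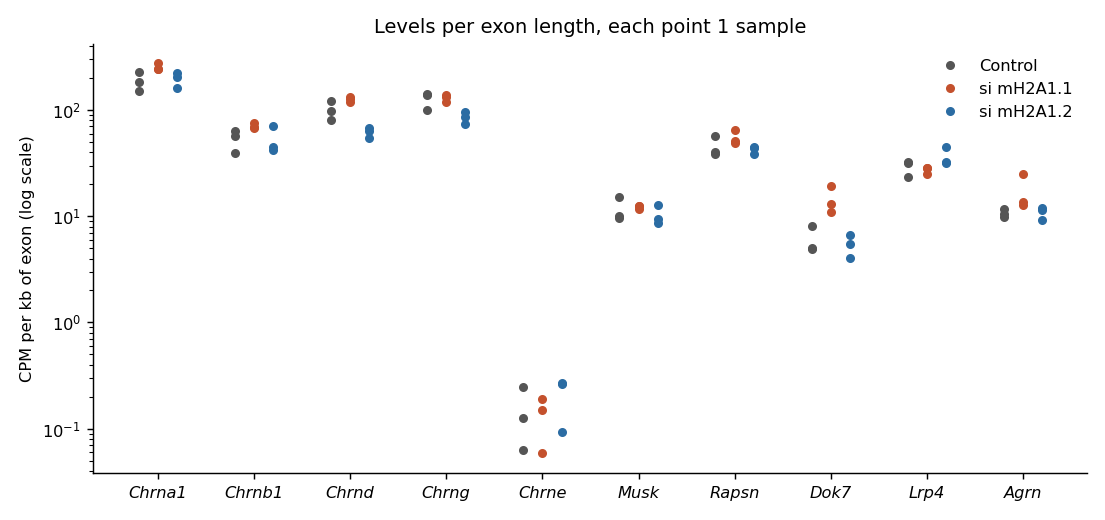
Level of each member in every sample, in CPM per kilobase of annotated exon on a log10 axis; each point is 1 sample, coloured by group. Chrna1, Chrng and Chrnd are the highest, and Chrne lies far below all other members in every group.

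Chrne, the epsilon subunit of the adult receptor, was close to the limit of detection. It had 8, 4 and 16 counts in the control samples, 4, 13 and 11 with si mH2A1.1, and 16, 6 and 17 with si mH2A1.2. All 3 groups overlapped. The exact 95% Poisson interval of the lowest sample, 4 counts, is 1.09 to 10.2 counts, and that of the highest, 17 counts, is 9.90 to 27.2 counts; these intervals include no error beyond counting, because the reads carry no molecular identifiers and may not be separate molecules. Per exon length, the ratio of Chrne to Chrng was 0.00109 ± 0.000557 (SD) in control cells, 0.00103 ± 0.000512 when macroH2A1.1 was targeted and 0.00239 ± 0.00100 with si mH2A1.2. By the mean ratio, the gamma transcript was therefore about 919 times the epsilon transcript in control cells on this scale, and about 1316 times over the longest transcripts. These folds are imprecise, since the ratio per exon length ranged from 0.000634 to 0.00171 between the control samples. No difference in Chrne was detectable at this depth (log2 fold change -0.12 ± 0.61 with si mH2A1.1, adjusted p = 0.912, and 0.51 ± 0.59 with si mH2A1.2, adjusted p = 0.744).

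Knockdown of macroH2A1.1 raised Dok7, the activator of MuSK, and no other member was called. The 1 called member of 10 compares with 11.1% of all tested genes called in this comparison (6.18% higher, 4.93% lower). The median log2 fold change of the 10 members was 0.31, against -0.01 for all tested genes, and 8 of the 10 had positive values. In 4 members, Chrna1, Chrnb1, Dok7 and Agrn, every si mH2A1.1 sample was above every control sample. Of all tested genes, 17.5% were separated upwards in this way, 16.7% downwards, and 34.2% in either direction.

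Dok7 was at 21.3, 21.02 and 34.7 CPM in control cells, 82.3, 46.5 and 56.2 CPM with si mH2A1.1, and 28.4, 17.2 and 23.3 CPM with si mH2A1.2. The si mH2A1.1 samples were above all 6 others, although they also differed most among themselves. Against control, Dok7 was 2.40-fold higher (log2 fold change 1.26 ± 0.26, adjusted p = 0.0178), and DESeq2 gave an adjusted p of 8.67e-05. The call depended on single samples, with an adjusted p of 0.0510 without control replicate 1, 0.0758 without control replicate 2 and 0.0639 without si mH2A1.1 replicate 1. In each of these fits the log2 fold change stayed at 1.01 or more. The number of all tested genes called higher changed too, from 1208 in the main fit to 796, 389 and 467 in these fits, in the same order. Dok7 kept its call without control replicate 3 and without si mH2A1.1 replicate 3, where 507 and 458 genes were called higher. Musk, the kinase that Dok-7 activates, was at 37.6, 36.0 and 56.9 CPM in control cells and 44.3, 46.9 and 46.7 CPM with si mH2A1.1. These ranges overlapped, and the log2 fold change was 0.08 ± 0.19 (adjusted p = 0.809).

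Agrn, the ligand gene, was at 98.5, 107.9 and 92.1 CPM in control cells and at 119, 127 and 234 CPM with si mH2A1.1. All si mH2A1.1 samples were above the controls, but replicate 3 was far above the other two. The log2 fold change was 0.69 ± 0.23, which did not pass in edgeR (adjusted p = 0.0781), passed in DESeq2 (adjusted p = 0.0286), and ranged from 0.31, without that replicate, to 0.86 when single samples were left out. Its coreceptor gene Lrp4 was at 340, 248 and 336 CPM in control cells and 296, 264 and 298 CPM with si mH2A1.1. These groups overlapped (log2 fold change -0.11 ± 0.16, adjusted p = 0.707). Rapsn, encoding the receptor anchor, was at 69.7, 72.1 and 103 CPM in control cells and 116, 87.5 and 92.4 CPM with si mH2A1.1. Its ranges overlapped too (log2 fold change 0.27 ± 0.16, adjusted p = 0.293).

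Among the receptor subunits, Chrna1, which carries most of the acetylcholine binding site, was at 814, 664 and 996 CPM in control cells and at 1204, 1066 and 1066 CPM with si mH2A1.1. The ranges did not overlap, but the log2 fold change of 0.43 ± 0.17 was not called (adjusted p = 0.119), and it was called when the replicate number was added to the model as a block (adjusted p = 0.0429). With the block, 20.8% of all tested genes were called, and DESeq2 called 16.7% of the genes to which it gave an adjusted p. Chrnb1, the beta subunit, was at 160, 100.5 and 145 CPM in control cells and at 189, 172 and 175 CPM with si mH2A1.1. It was likewise separated and not called (log2 fold change 0.40 ± 0.21, adjusted p = 0.230). Chrnd had a log2 fold change of 0.35 ± 0.15 (adjusted p = 0.150) and Chrng one of 0.03 ± 0.15 (adjusted p = 0.931), each with overlapping ranges.

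**Figure D2:**
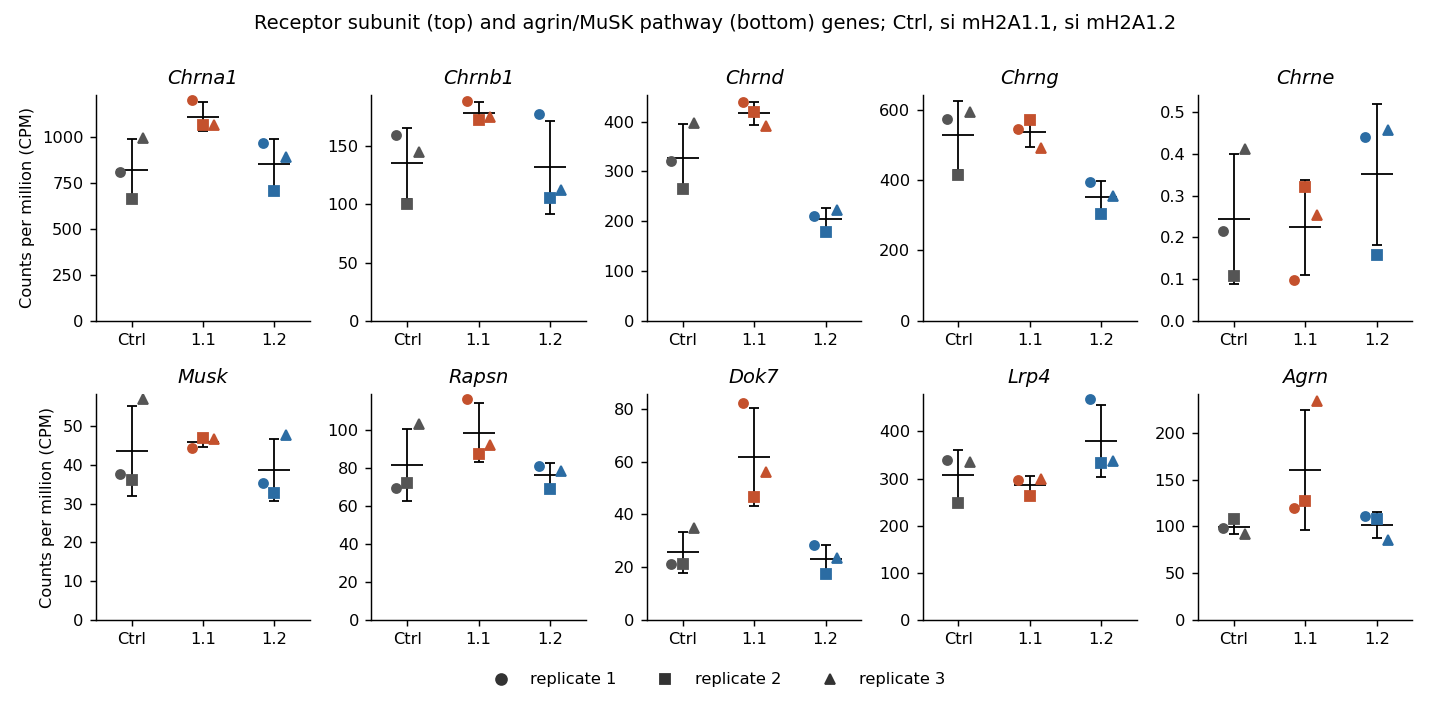
Level of each member in CPM, by sample; symbols mark the replicate number, the long bar is the mean of 3 samples and the whiskers are 1 SD. Dok7 is highest in the 3 si mH2A1.1 samples, and Chrnd and Chrng are lowest in the 3 si mH2A1.2 samples.

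Knockdown of macroH2A1.2 lowered Chrnd, the delta subunit, and this was the single member called of 10. In this comparison 2.35% of all tested genes were called (1.37% higher, 0.982% lower). The 10 members had a median log2 fold change of -0.07, with 4 positive values, and the median of all tested genes was 0.00 after rounding. The 2 members whose si mH2A1.2 samples were all below the controls were Chrnd and its neighbour Chrng. No member was separated upwards, whereas 10.8% of tested genes were separated downwards, 11.7% upwards, and 22.5% in either direction.

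Chrnd was at 320.1, 265 and 398 CPM in control cells, 439, 419 and 392 CPM with si mH2A1.1, and 210.2, 179 and 222 CPM with si mH2A1.2. The si mH2A1.2 samples were below all 6 others. Against control, Chrnd fell by 0.69 ± 0.15 on the log2 scale, to 0.622 of the control level (adjusted p = 0.0452, and 0.000881 in DESeq2). The edgeR call was near its threshold and was lost in 8 of the 9 fits that left out 1 sample (adjusted p = 0.0528 to 0.153), including those that left out a si mH2A1.1 sample. It was kept without control replicate 2 (adjusted p = 0.0325), and it was lost when only the control and si mH2A1.2 samples were fitted (adjusted p = 0.0792). The number of all tested genes called lower changed too, from 192 in the main fit to 29 to 213 with 1 sample left out. It was 105 without control replicate 2, where Chrnd kept its call, and 213 without si mH2A1.1 replicate 1, where Chrnd lost it. With only the control and si mH2A1.2 samples it was 112. DESeq2 called 5.9% of the genes to which it gave an adjusted p, and the replicate block 5.14% of tested genes.

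Chrng, the gamma subunit of the embryonic receptor, was at 574, 414 and 594 CPM in control cells, 547, 572 and 491 CPM with si mH2A1.1, and 395, 305 and 355 CPM with si mH2A1.2. As for Chrnd, every si mH2A1.2 sample was below every other sample. The log2 fold change against control was -0.59 ± 0.16. It was not called in edgeR (adjusted p = 0.0859), and it was called in DESeq2 (adjusted p = 0.00856) and in edgeR without control replicate 2 (adjusted p = 0.0431). That control sample was the lowest of its group for Chrna1, Chrnb1, Chrnd and Chrng, and si mH2A1.2 replicate 2 was likewise the lowest of its group for these 4 genes.

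For the alpha and beta subunits the si mH2A1.2 samples overlapped the controls. Chrna1 was at 972, 706 and 892 CPM with si mH2A1.2 (log2 fold change 0.06 ± 0.17, adjusted p = 0.910). Chrnb1 was at 178, 106 and 112 CPM (log2 fold change -0.03 ± 0.21, adjusted p = 0.962). In the pathway, Lrp4 was at 468, 332 and 337 CPM with si mH2A1.2, a log2 fold change of 0.30 ± 0.16 (adjusted p = 0.418), with replicate 1 above the other two. Musk was at 35.3, 32.7 and 47.7 CPM, Rapsn at 81.3, 68.9 and 78.5 CPM, and Agrn at 111, 107.5 and 85.2 CPM. Each overlapped the controls, and their adjusted p-values were 0.728, 0.832 and 0.977. Dok7 also overlapped (log2 fold change -0.16 ± 0.26, adjusted p = 0.831).

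**Figure D3:**
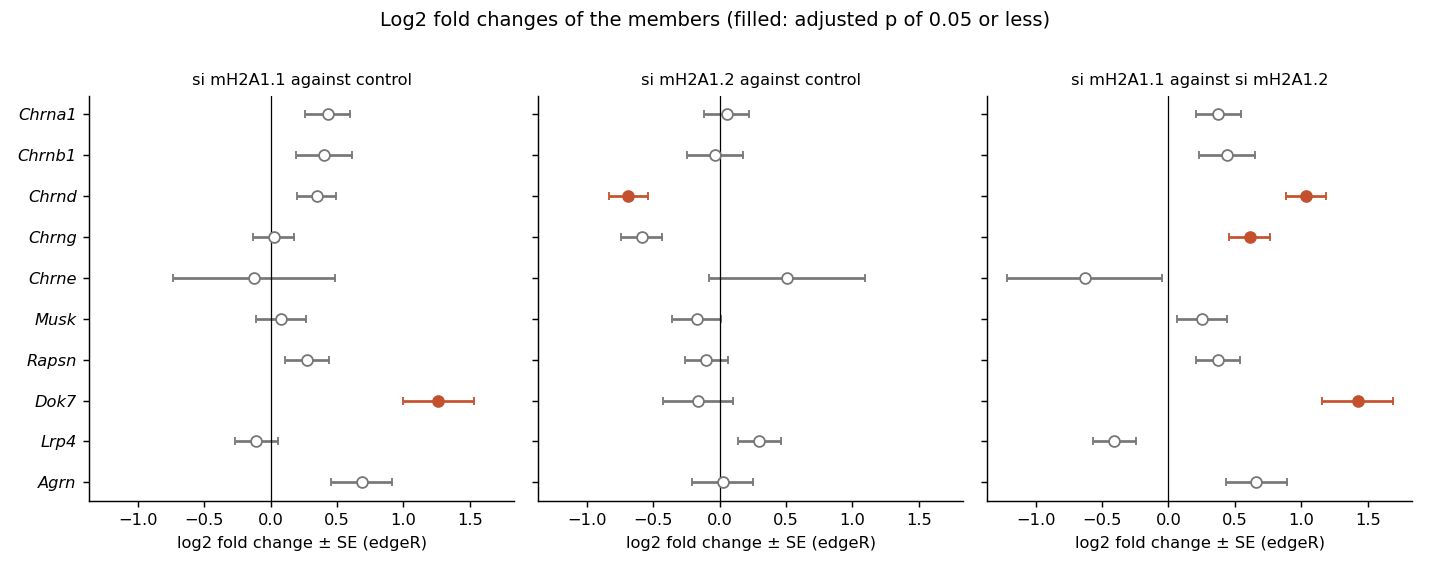
Log2 fold change of each member in the 3 comparisons, with whiskers of 1 SE from edgeR; filled points have an adjusted p of 0.05 or less. Filled are Dok7 with si mH2A1.1, Chrnd with si mH2A1.2, and Chrnd, Chrng and Dok7 between both knockdowns.

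The comparisons with control share the control samples, so the difference between both knockdowns was tested directly. Chrnd, Chrng and Dok7 were higher with si mH2A1.1 than with si mH2A1.2, 3 of 10 members, where 22.5% of all tested genes were called (12% higher, 10.5% lower). Chrnd was 2.05-fold higher (log2 difference 1.03 ± 0.15, adjusted p = 0.00161), and it stayed called in all 9 fits with 1 sample left out, with adjusted p-values up to 0.00977. Dok7 was 2.69-fold higher (1.43 ± 0.27, adjusted p = 0.00529, at most 0.0246 with 1 sample left out). The difference was smaller for Chrng, which was 1.53-fold higher (0.61 ± 0.16, adjusted p = 0.0194), and its call was lost without si mH2A1.1 replicate 1 (0.0598), si mH2A1.2 replicate 2 (0.0843) or si mH2A1.2 replicate 3 (0.0523). DESeq2 gave adjusted p-values of 5.22e-09 for Chrnd, 2.62e-06 for Dok7 and 0.00166 for Chrng, and it called 21.8% of the genes it adjusted.

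The other 7 members were not called between the knockdowns. Chrnb1 (log2 difference 0.44 ± 0.21, adjusted p = 0.163) and Lrp4 (-0.41 ± 0.16, adjusted p = 0.101) were called when the replicate number was a block, with adjusted p-values of 0.0359 and 0.0365, in a fit that called 29% of tested genes. Agrn differed by 0.66 ± 0.23 (adjusted p = 0.0622), and DESeq2 called it (adjusted p = 0.0265). The size of this difference rested on si mH2A1.1 replicate 3, without which it was 0.28 (adjusted p = 0.184), and it was called without si mH2A1.1 replicate 1 (0.83, adjusted p = 0.0444) or replicate 2 (0.80, adjusted p = 0.0385). Chrna1 (0.38 ± 0.17), Rapsn (0.37 ± 0.16), Musk (0.25 ± 0.19) and Chrne (-0.63 ± 0.59) had adjusted p-values of 0.129 to 0.479. In 7 members the samples of both knockdowns did not overlap, 6 of them higher with si mH2A1.1 and 1, Lrp4, lower. Of all tested genes, 39.7% were separated, 20.3% upwards and 19.4% downwards. Under a stricter rule, with an adjusted p under 0.01 and a log2 fold change no smaller than 0.8 in size, only Chrnd and Dok7 were called here, where 6.38% of tested genes were. In edgeR 0 members met that rule against control, where 1.8% of tested genes did for the first knockdown and 0.179% for the other. Against control, DESeq2 placed 1 member (Dok7 with si mH2A1.1) past it. The share of all genes that DESeq2 places past that rule was not computed, and at 0.05 alone it called 16.7% with si mH2A1.1. An unadjusted p under 0.05 in edgeR was found for 4 members with si mH2A1.1 (29.6% of all tested genes), compared with 2 under si mH2A1.2 (15.9%).

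The proportions of subunit transcripts within a sample do not depend on library size. These pairs were chosen after the values were seen, and the ratios are given without a test. In control cells the ratio of Chrnd counts to Chrna1 counts was 0.393, 0.399 and 0.399. It was 0.365, 0.393 and 0.368 with si mH2A1.1, and 0.216, 0.253 and 0.249 with si mH2A1.2. Control samples thus held the delta to alpha ratio within a narrow range although the level of each gene varied between them. The si mH2A1.2 samples were well below this range. For si mH2A1.1 there was no clear gap, since replicate 2 stood at 0.3932 beside 0.3934 in control replicate 1. The ratio of Chrng to Chrna1 averaged 0.642 ± 0.0569 (SD) in control cells, 0.484 ± 0.0461 when macroH2A1.1 was targeted and 0.412 ± 0.0180 with si mH2A1.2. For this ratio both knockdowns lay below the controls and did not overlap each other. A lower ratio need not mean less Chrng. When macroH2A1.1 was targeted, the log2 fold change against control was 0.03 for Chrng and 0.43 for Chrna1. Under knockdown of macroH2A1.2 it was -0.59 for Chrng and 0.06 for Chrna1. None of these values was called in the main edgeR fit. How often other gene pairs separate in this way was not computed. The ratio of Chrnb1 to Chrna1 overlapped in all groups, with means of 0.164 ± 0.0278, 0.161 ± 0.00358 and 0.153 ± 0.0287. Dok7 to Musk was 0.568, 0.584 and 0.610 in control cells, 1.86, 0.991 and 1.205 with si mH2A1.1, and 0.803, 0.526 and 0.489 with si mH2A1.2. Every si mH2A1.1 sample was above every other sample for this ratio.

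**Figure D4:**
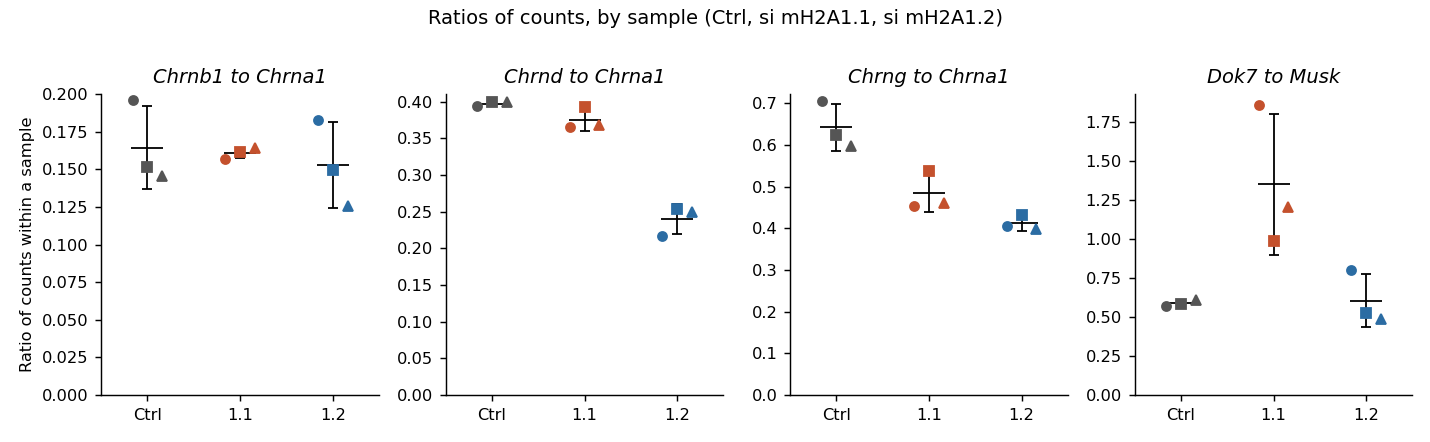
Ratio of the counts of gene pairs within each sample; points are samples with the symbol of their replicate number, the long bar is the mean of 3 samples and the whiskers are 1 SD. The delta to alpha ratio is 0.393 to 0.399 in control cells and 0.216 to 0.253 with si mH2A1.2, and the Dok7 to Musk ratio is highest with si mH2A1.1.

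Over the 9 samples, the closest pairs of members included genes of the receptor and of the pathway. The log2 CPM of Chrnd and Chrng correlated with r = 0.921 and rho = 0.783, those of Chrna1 and Dok7 with r = 0.902 and rho = 0.983, and those of Rapsn and Dok7 with r = 0.897 and rho = 0.933. Lrp4 ranged from r = -0.472 with Chrnd to r = 0.558 with Chrne. These are descriptions across samples that fall into 3 groups, and they carry no p. The genes most like the mean log2 CPM of Chrna1, Chrnb1, Chrnd and Chrng, of 14369 genes compared, were Synpo2l (r = 0.990), which encodes a Z-disc protein, Pdlim3 (r = 0.984), which encodes an actinin-associated LIM protein, Gm15935 (r = 0.979), Grtp1 (r = 0.976) and Susd5 (r = 0.971).

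Genes that act around the receptor were taken from 7 further lists, for MuSK adaptors, the synaptic basal lamina, the utrophin scaffold, neuregulin signalling, denervation, receptor assembly and the non-muscle receptor subunits. Of their 77 genes, 64 were tested. With si mH2A1.1, 2 rose and 4 fell (9.38% called, against 11.1% of all tested genes), and their median log2 fold change was -0.07. With si mH2A1.2, 1 rose and 1 fell (3.12%, against 2.35%), with a median of -0.04. Between the knockdowns 2 were higher and 8 lower with si mH2A1.1 (15.6%, against 22.5%). The members' positive median with si mH2A1.1 was thus not shared by these lists as one group, a description without a test.

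Of the 19 MuSK adaptor and downstream genes, edgeR called 3 after knockdown of macroH2A1.1 (15.8%, against 11.1% of all tested genes). After knockdown of macroH2A1.2, edgeR and DESeq2 each called 0, where edgeR called 2.35% of all tested genes. An unadjusted p under 0.05 in edgeR was found for 5, and for 15.9% of all tested genes. Dvl1, a dishevelled gene whose protein binds MuSK, was at 171 ± 8.62 CPM in control cells and 115 ± 9.81 CPM with si mH2A1.1 (SD), and fell by 0.58 on the log2 scale (SE 0.09, adjusted p = 0.00644). Ctnnb1, encoding beta-catenin, rose by 0.53 (SE 0.10, adjusted p = 0.0108), and Cttn, encoding the actin-binding protein cortactin, rose by 0.40 (SE 0.10, adjusted p = 0.0290). In the basal lamina list Lamb2, the laminin chain concentrated at the synapse, fell with si mH2A1.1 from 272 ± 32.4 to 173 ± 32.3 CPM (log2 fold change -0.66, SE 0.17, adjusted p = 0.0330). Sntb1, a syntrophin of the dystrophin and utrophin scaffold, fell with si mH2A1.2 from 107 ± 18.8 to 69.6 ± 9.01 CPM (log2 fold change -0.63, SE 0.14, adjusted p = 0.0489).

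Nrg1, encoding neuregulin, a signal that acts on ErbB receptors at the synapse, was at 9.53, 18.1 and 14.2 CPM in control cells and at 28.8, 32.0 and 27.0 CPM with si mH2A1.2. It was 2.10-fold higher with si mH2A1.2 (log2 fold change 1.07 ± 0.20, adjusted p = 0.0280). In the denervation list Myog, a factor that binds E-boxes of receptor genes, fell with si mH2A1.1 from 666 ± 69.0 to 421 ± 75.8 CPM (log2 fold change -0.66, SE 0.14, adjusted p = 0.0204). Gadd45a, a stress-response gene induced in denervated muscle, fell with si mH2A1.1 by 0.54 (SE 0.14, adjusted p = 0.0332). Of the 8 tested receptor assembly genes, edgeR and DESeq2 called 0 in each comparison with control, and 0 had an unadjusted p under 0.05 in edgeR. Of the 11 non-muscle subunit genes, 9 had too few counts to be tested, at most 13 in a sample. Among the 8 calls against control in the related lists, that of Dvl1 held in all 9 fits with 1 sample left out. The other 7 kept their direction but lost the call in 1 to 8 of the fits, with adjusted p-values up to 0.171.

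**Figure D5:**
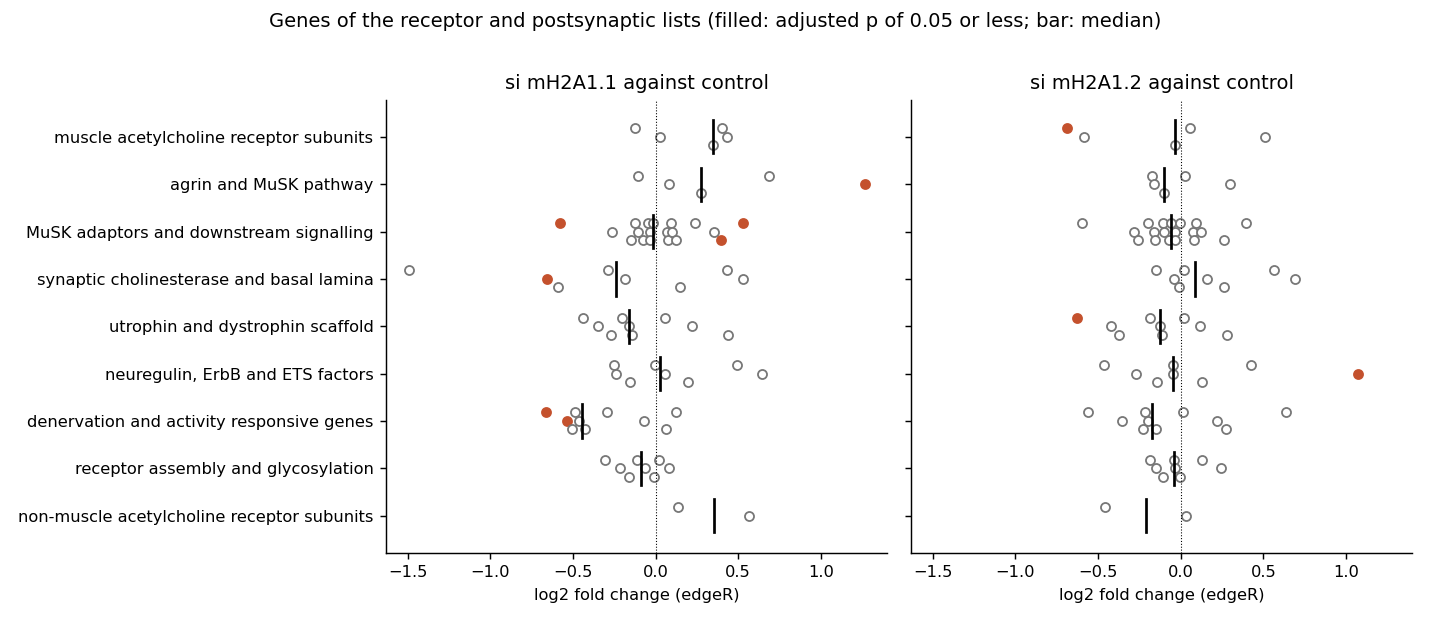
Log2 fold changes of the genes in the receptor, pathway and 7 related lists, for each knockdown against control; each point is 1 tested gene, filled points were called and the bar is the list's median. The members' medians are positive with si mH2A1.1, and the called genes of the other lists lie on both sides of 0.

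The tissue label was checked with marker genes. Summed over 9 myotube genes, including Myh3, Acta1 and Des, the level was 12340 to 16962 CPM in control cells, 11866 to 12919 CPM with si mH2A1.1 and 11126 to 13654 CPM with si mH2A1.2, so muscle transcripts were abundant in every sample. Of these 9 markers 1 was called with si mH2A1.1 (Actn2, a fall of 0.74 on the log2 scale, adjusted p = 0.0125). With si mH2A1.2, 3 were called, all lower, Actn2 by 1.25 (adjusted p = 0.00631), Tnnt3 by 0.96 (adjusted p = 0.0280) and Des by 0.62 (adjusted p = 0.0466). These are 11.1% and 33.3% of the list, against 11.1% and 2.35% of all tested genes. The list went both ways, with 4 positive and 5 negative log2 fold changes with si mH2A1.1 and 3 and 6 with si mH2A1.2. The 9 markers of undifferentiated or cycling myoblasts summed to 351 to 478 CPM in control cells, 507 to 833 CPM with si mH2A1.1 and 318 to 393 CPM with si mH2A1.2. Of these, Ccnd1 rose with si mH2A1.1 by 0.85 (adjusted p = 0.00613) and Myf5 fell with si mH2A1.2 by 0.84 (adjusted p = 0.0422). Each was the 1 called of 9 (11.1%), against the same 11.1% and 2.35% of all tested genes. Of these marker calls, Actn2 with si mH2A1.2 and Ccnd1 held whichever sample was left out, Actn2 with si mH2A1.1 was lost in 1 of 9 such fits (adjusted p = 0.0541), Tnnt3 in 4, Des in 8 and Myf5 in all 9. Between the knockdowns 8 of the 9 myoblast markers were called, 6 of them higher with si mH2A1.1, where 22.5% of all tested genes were called and 12% were higher. The 3 si mH2A1.1 samples stood at 833, 507 and 662 CPM for the summed myoblast markers and at 82.3, 46.5 and 56.2 CPM for Dok7. The highest levels in that sum were those of Top2a, Mki67 and Ccnd1, with means of 128, 103 and 83.3 CPM in control cells and 203, 186 and 150 CPM with si mH2A1.1. Id1, Id2 and Id3 went the other way, with means of 6.91, 6.29 and 12.9 CPM in control cells and 6.70, 5.68 and 7.94 CPM with si mH2A1.1. The part of cycling or undifferentiated cells in the Dok7 and Chrnd results was not tested. In bulk RNA, fewer cells of a type and less mRNA per cell cannot be told apart.

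Nerve-derived transcripts were near 0. The neuron markers Chat and Slc18a3 had 0 counts in all 9 samples and Rbfox3 had 1, and the 5 neuron markers summed to at most 1.52 CPM in any sample. The Schwann cell marker Sox10 had 4 counts over all samples, and its list of 4 summed to 1.96 to 4.68 CPM. The 5 endothelial and blood cell markers summed to 0.964 to 1.84 CPM. Of the tested markers of these 3 lists, 1 was called against control, the synaptic vesicle gene Syt1. It was lower with si mH2A1.1, as were 4.93% of all tested genes. Except for Chrne, which was below these sums, every member was above them in every sample.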

How the data were processed

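The authors made libraries of polyadenylated RNA from C2C12 cells, sequenced them as single reads, and quantified them with Salmon on GRCm38. The deposited count table holds these estimated counts per gene as whole numbers without normalization. The normalized table, in which each sample is scaled by its own size factor, was not used. Groups and replicate numbers were taken from the labels. Names, positions and exon lengths came from GENCODE M21, with a name for 52762 of 52780 genes, and promoter windows from RefSeq on GRCm38.p6.

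Differential expression was tested with edgeR 4.0.16 in R 4.3.3 (quasi-likelihood test in its legacy form, TMM normalization, filterByExpr, 19545 genes, Benjamini-Hochberg adjustment), with all 9 samples in 1 model and 3 contrasts, and a threshold of 0.05. CPM are counts divided by the effective library size and multiplied by 1e6. That size is the summed counts of the tested genes times the TMM factor of the sample. The members, gene lists and tests were chosen with earlier results of these data known. All 10 members are named, and of every other list up to 4 called genes per contrast against control with a mean of at least 1 CPM. Values of 1 listed gene are left out here. Chrne counts have exact Poisson intervals. The alternatives were DESeq2 1.42.0, edgeR with size factors from DESeq2, without its filter, with a minimum of 10 counts per sample, or in its newer form, only the samples of both groups, a stricter rule, and leaving out each sample. The fits were tested on simulated data.

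Samples of the same replicate number in different groups deviated from their group means together, with r of 0.101 to 0.475 in 9 of 9 pairs on log2(CPM + 0.5), where all had to exceed 0.1. The margin is narrow, since with a prior of 2 counts 5 of the 9 exceeded it and the lowest r was 0.0841. No label states what a number stands for. The main tests did not pair the samples, since their model held no term for the replicate number. A fit with the replicate number as a block was run as an alternative. Its result is given wherever it changes the call of a member.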

Additional observations from a re-analysis of the deposited data

Results flagged for a closer look

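For 3 members the effect of si mH2A1.1 differed from that of si mH2A1.2, by the direct test between both knockdowns, which is the difference of their effects against the shared controls. The difference for Chrnd was 1.03 on the log2 scale (adjusted p = 0.00161, edgeR), with all si mH2A1.1 samples above all si mH2A1.2 samples. Dok7 differed by 1.43 (adjusted p = 0.00529), again with no overlap. Chrng differed by 0.61 (adjusted p = 0.0194), a call that was lost when any of 3 single samples was left out. In the same test 22.5% of all genes were called. No member was tested for a single outlying sample, since each group has 3 samples.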

How the results depend on the processing

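The number of members called was 1 in each comparison with control and 3 between the knockdowns. With DESeq2 and without a filter on low counts it became 2 in each comparison with control, with the stricter rule 0 in each, and with only the samples of both groups 0 for si mH2A1.2. With the replicate block it was 2 for si mH2A1.1 (Chrna1 added) and 5 between the knockdowns (Chrnb1 and Lrp4 added), and the block changed no other call of a member. Leaving out 1 sample gave 0 to 2 for each comparison with control and 2 to 4 between the knockdowns. Of 19990 to 20208 genes, these fits called 389 to 1644 higher and 208 to 1284 lower with si mH2A1.1 (main fit 1208 and 963). With si mH2A1.2 they called 44 to 331 higher and 29 to 213 lower (main fit 268 and 192). Between the knockdowns it was 1218 to 2486 and 1033 to 2130 (main fit 2350 and 2047). Without the filter, of 37475 genes, 1376 and 1106 were called with si mH2A1.1, and 408 and 272 with si mH2A1.2. Dok7 with si mH2A1.1, Chrnd with si mH2A1.2, and Chrnd, Chrng and Dok7 between the knockdowns, kept their direction in every setting. The call of Chrnd with si mH2A1.2 was still lost in 8 of the 9 fits with 1 sample left out. Of the members' log2 fold changes under these alternatives, 429 kept direction and call, 14 were called only there, 15 lost their call and 19 changed sign. All 19 sign changes came from leaving out 1 sample in values that were never called, with ranges of -0.12 to 0.11 for Chrng, -0.48 to 0.47 for Chrne and -0.042 to 0.31 for Musk with si mH2A1.1. The si mH2A1.2 ranges were -0.078 to 0.21 for Chrna1, -0.31 to 0.10 for Chrnb1, -0.35 to 0.061 for Musk, -0.20 to 0.10 for Rapsn, -0.34 to 0.11 for Dok7 and -0.051 to 0.13 for Agrn. The causes were not tested. Over the longest transcript in place of all exons, 14 of 30 levels per kb moved by more than their SD, and the mean Chrne to Chrng ratio of control cells moved from 0.00109 to 0.00076, within its SD. Among the members, depth limits Chrne most, at 4 to 17 counts per sample.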
